A study of Mus musculus with 4 samples.

Results

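miR-802 was read in the liver of WT and *Clock* mutant mice as the entry mmu-miR-802 of an Agilent mouse miRNA array, 1 of 611 mouse miRNAs on it. It was chosen by its measured ratio of *Clock* mutant to WT, which was below 1 at both time points, so its genotype ratios are given as values with no test. The entry had 20 spots on each array, 10 for the probe A_54_P1847 and 10 for the probe A_54_P1848, which makes 80 spots over the 4 arrays. The arrays held WT liver at ZT2, *Clock* mutant liver at ZT2, WT liver at ZT14 and *Clock* mutant liver at ZT14, the number being the hours since lights on (2 h and 14 h). Each array received RNA pooled from 3 male mice, aged 6 to 8 weeks, which lived alone in their cages under 12 h light and 12 h dark with food and water at will for 2 weeks. The mutant mice carried the *Clock* Δ19 allele, whose zygosity is not given in the sources used here, and the labels name no other allele or agent. There was 1 array per condition, so genotype and the chance make-up of a pool cannot be told apart, and the spread of repeated spots is a technical error that holds no difference between mice.

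A miRNA is cut from a hairpin transcript, and the bases after its first, called the seed, pair with target mRNAs and lower their translation or stability. miR-802 is known in mouse liver for its increase in obesity and for its effects on glucose handling. CLOCK is a transcription factor of the circadian clock that binds E-box DNA together with BMAL1, and the Δ19 protein binds but activates poorly. The sequences are shown because the array names miR-802 without an arm. RefSeq (GRCm38.p6) places the *Mir802* hairpin at chr16:93369720-93369816 on the plus strand, the 5p arm at chr16:93369737-93369758 and the 3p arm at chr16:93369775-93369796. Each is written 5′ to 3′, with both arms in capitals in the hairpin and the seed, bases 2 to 8, in capitals in the mature forms.
Mir802 hairpin: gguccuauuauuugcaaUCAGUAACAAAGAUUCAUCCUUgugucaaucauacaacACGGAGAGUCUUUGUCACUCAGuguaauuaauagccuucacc
mmu-miR-802-5p: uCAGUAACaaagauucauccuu
mmu-miR-802-3p: aCGGAGAGucuuugucacucag

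The hairpin is 97 bases long and each arm 22. None of the other 1678 mature mouse miRNAs in the RefSeq table carried the seed of miR-802-5p (0 of 1678). The longest run of bases that miR-802-5p shared with any of them was 8, found in miR-211-5p, miR-6516-5p and miR-7210-3p. No RefSeq gene overlapped *Mir802*, and its nearest neighbours on the chromosome were the lncRNA genes *1810053B23Rik* and *1700029J03Rik*.

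The probe A_54_P1848 was brightest on the WT array at ZT2. Its spots had a mean background-subtracted intensity of 93.0 ± 4.42 (SD, 10 spots) in WT against 26.5 ± 4.14 (10 spots) in the mutant at ZT2. At ZT14 the WT mean was 37.0 ± 2.26 (9 spots) and the mutant mean 24.9 ± 4.48 (10 spots). The lowest WT spot at ZT2 read 85.1 and the highest mutant spot 32.4, so the genotypes did not overlap at that time. At ZT14 the WT spots read 33.9 to 40.0 and the mutant spots 18.9 to 34.8, and the ranges overlapped at their edges. The second probe, A_54_P1847, was also brightest on the WT array at ZT2, with WT above the mutant at ZT14. Its mean at ZT2 was 45.2 ± 4.06 (10 spots) for WT and 9.53 ± 2.65 (10 spots) for the mutant, and the spots again did not overlap. At ZT14 the WT spots averaged 17.3 ± 2.25 (9 spots) and the mutant spots 12.0 ± 4.60 (10 spots), with overlapping spots. The negative control spots averaged 6.60 (WT) and 5.65 (mutant) on the ZT2 arrays, and 9.53 (WT) and 9.27 (mutant) on the ZT14 arrays. The second probe had 10 of its 10 spots in the range of the negative controls, as the scanner software marks it, on each mutant array, and 9 of 10 on the WT array at ZT14. The first probe had 7 of 10 spots in that range on the mutant array at ZT14 and 0 on the other 3 arrays. Signal near background thus touches every array except WT at ZT2 for the second probe, and the mutant array at ZT14 for the first.

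**Figure D1:**
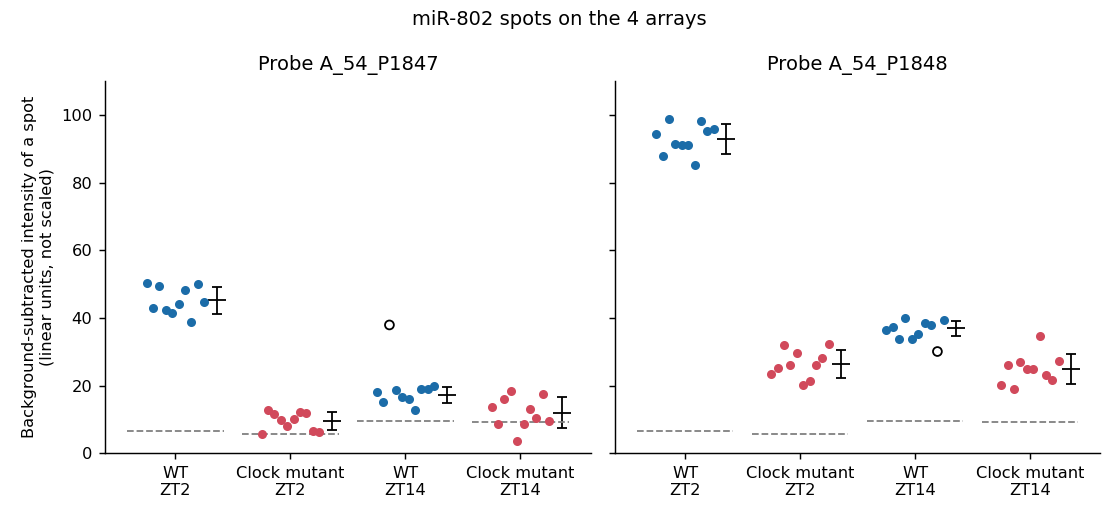
Background-subtracted intensity (linear units, not scaled) of every miR-802 spot on the 4 arrays, in 1 panel per probe. Filled points are spots that entered the means, open circles the 2 outlier spots, black marks the mean and SD of spots, and dashed lines the mean of the negative control spots. WT at ZT2 stands above all other arrays for both probes, and the other 3 arrays lie closer together.

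Of the 20 spots on an array, the number that the scanner software called well above background was 20 for WT against 6 for the mutant at ZT2. At ZT14 the numbers were 11 for WT and 3 for the mutant. For A_54_P1847 alone this number was 10 and 0 at ZT2, and 1 and 0 at ZT14. The software took 2 spots as outliers, 1 for each probe and both on the WT array at ZT14, and these were left out. The outlier of A_54_P1847 was its 1 spot well above background there, so none of the 9 spots kept was. No miRNA spot on any array was saturated.

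For comparison between arrays, each array's signal was scaled to its own 75th percentile, taken over the 123 mouse miRNAs that all 4 arrays detected, and the mean of both probes was expressed as log2 of that scaled signal. The mean intensity of miR-802 before scaling was 69.1, 18.0, 27.1 and 18.5 in WT at ZT2, the mutant at ZT2, WT at ZT14 and the mutant at ZT14. The 75th percentiles, in the same order, were 537, 503, 339.9 and 536, the lowest being that of WT at ZT14. The scaled log2 levels were -2.96, -4.81, -3.65 and -4.86, again in that order. WT at ZT2 was highest and WT at ZT14 next, and the 2 mutant arrays were lowest and close to each other.

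The level in the mutant was 3.60-fold lower than in WT at ZT2, which is -1.85 as a log2 ratio (spot SD 0.36). The ZT14 level was 2.31-fold lower in the mutant, which is -1.21 on the log2 scale (spot SD 0.54). After scaling, the spots of WT and mutant did not overlap for either probe at either time point, but before scaling both probes overlapped at ZT14. How many other miRNAs have spots without overlap was not counted, here or between time points. The scaled spots of a probe were also paired in their listed order. The mutant was lower in 20 of 20 pairs at ZT2 and in 18 of 18 at ZT14. It was at least 2-fold lower in 20 and 14 of them. Such pairs were counted neither before scaling nor for other miRNAs. Scaling moved the ZT14 log2 ratio from -0.55 to -1.21. Of the 18 pairs at ZT14, 9 came from A_54_P1847, whose kept spots all lay in the range of the negative controls on both ZT14 arrays. A decrease of at least 2-fold was seen for 4 of the 160 mouse miRNAs detected on both arrays at ZT2 (2.5%) and for 8 of 123 at ZT14 (6.5%), and an increase of that size for 0.0% at each time. A decrease of any size was seen for 60.0% and 56.1%. Only miR-802 was among those past 2-fold at both time points, 1 of the 123 miRNAs detected on all 4 arrays (0.813%). The rule that chose miR-802 used these ratios, so nothing is read from the shares. In bulk liver, fewer cells of a type and less RNA per cell cannot be told apart.

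The ZT14 ratio depends on the scaling more than the ZT2 ratio. Unscaled signals gave a log2 ratio of -1.94 for ZT2 and one of -0.55 for ZT14. At ZT14 the miRNAs detected on all arrays were brighter on the mutant array, with a 75th percentile of 536 against 339.9 in WT. The spike-in control probes were not, with a geometric mean of 6002 in the mutant against 6738 in WT. The median unscaled log2 ratio over the 123 miRNAs at ZT14 was 0.63, against -0.031 after scaling. With the spike-in control probes as reference the ZT14 ratio was -0.39.

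By probe, the decrease of A_54_P1848 was 3.29-fold at ZT2 (log2 -1.72, spot SD 0.24) and 2.34-fold at ZT14 (log2 -1.22, spot SD 0.27). A_54_P1847 had no spot well above background on a mutant array, so at most a bound can be given for it. For ZT2 its mutant signal was replaced by the lowest mean of any mouse miRNA probe with at least 1 spot well above background on that array, where that was higher. That lowest mean, 5.67, was under the probe's own mutant mean of 9.53, so this floor did not act. The 4.45-fold decrease it left at ZT2 is the measured ratio of a signal near background, not a bound. When the floor came from probes with most of their spots well above background, a choice made after seeing the data, the bound was 1.67-fold. No fold is given for A_54_P1847 at ZT14, where no kept spot of either genotype was called well above background. The ZT14 decrease by probe thus rests on A_54_P1848, itself near background on the mutant array. There 3 of its 10 spots were called well above background and 7 of 10 lay in the range of the negative controls. With the same later floor, 26.8 against its own mean of 24.9, the bound for this probe at ZT14 was 2.18-fold.

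**Figure D2:**
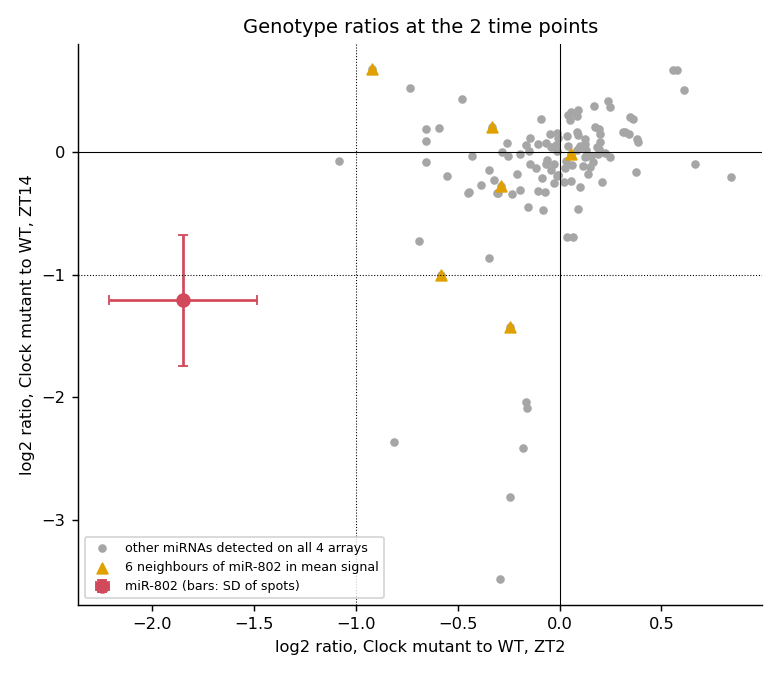
log2 ratio of *Clock* mutant to WT at ZT2 (x axis) and ZT14 (y axis) for the 123 mouse miRNAs detected on all 4 arrays, on the scaled values, with the 6 neighbours of miR-802 in mean signal as triangles. Dotted lines mark a 2-fold decrease; miR-802, at -1.85 and -1.21 with the SD of its spots as bars, is the 1 miRNA past both of them.

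The scanner software also summed the signal of each probe and of each miRNA, and it took a probe as detected where its total exceeded 3 times its error. The total of A_54_P1848 was 9.04 and 4.53 times its error in WT and mutant at ZT2, and 6.09 and 4.24 times in WT and mutant at ZT14. That of A_54_P1847 was 7.17 and 3.38 times its error on the WT arrays at ZT2 and ZT14, but 1.80 and 2.20 times on the mutant arrays. This probe was thus detected in WT and undetected in the mutant at both time points, and miR-802 as a whole was called detected on all 4 arrays. The total that the software gave for miR-802 was 93.8 in WT at ZT2 and 38.1 in WT at ZT14, equal to the sum of its probe totals. On the mutant arrays that total was 99.1 at ZT2 and 101 at ZT14, where the probe totals summed to 24.2 and 26.3. The software's total exceeded the sum by 74.9 and 74.7 units on those 2 arrays.

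This was not particular to miR-802. On the WT array at ZT2, all 141 detected mouse miRNAs with every probe detected had a total within 0.1% of the sum of their probes. Of the 52 with a probe under the limit, 46 had a total more than 10% above the sum. The same held for 43 of 49 and 28 of 34 such miRNAs on the mutant array at ZT2 and the WT array at ZT14, and for 39 of 42 on the mutant array at ZT14. Ratios taken from the software's scaled totals were -0.038 at ZT2 and 0.68 at ZT14 on the log2 scale, so at ZT14 the direction turned.

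**Figure D3:**
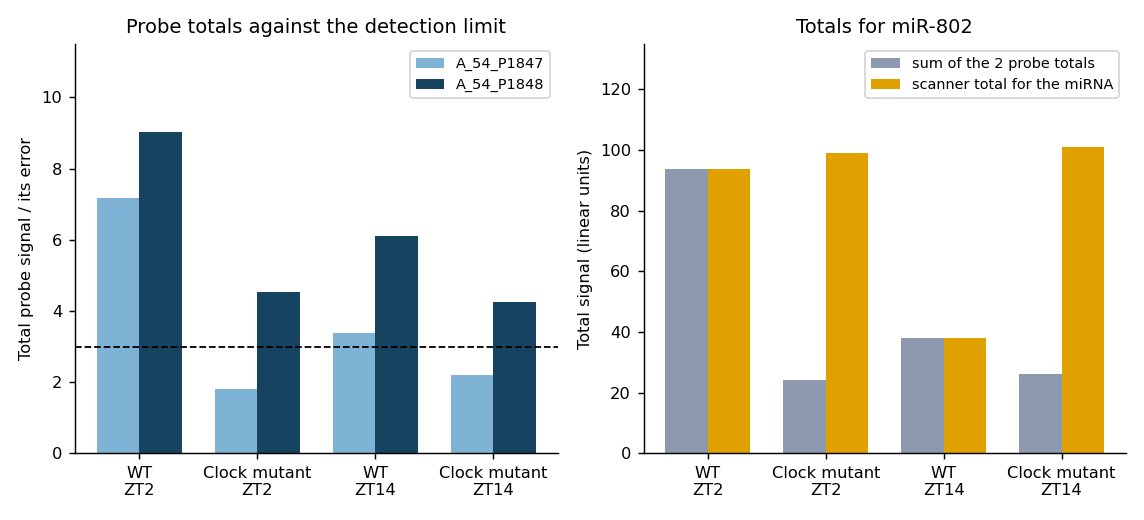
Left, total signal of each miR-802 probe divided by its error on the 4 arrays, with the detection limit of 3 as a dashed line. Right, the sum of the probe totals beside the total the scanner software gave for the miRNA (linear units), which are equal on the WT arrays and 74.9 and 74.7 units apart on the mutant arrays.

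The deposited log2 table held 2.37 and 0.88 for miR-802 in WT and mutant at ZT2, and 8.58 and 7.47 in WT and mutant at ZT14. These values equal the log2 of the sum of the detected probes minus a number that was the same for every detected miRNA of an array. That number was 4.18 on the WT array and 3.27 on the mutant array at ZT2, and -3.32 on both ZT14 arrays. The mutant values therefore rest on 1 probe and the WT values on 2. The table's log2 ratio of mutant to WT was -1.48 at ZT2 and -1.10 at ZT14. The ZT2 ratio includes a difference of 0.92 between the subtracted numbers and was -2.40 without it. Both ratios also set 1 mutant probe against 2 WT probes. Summing both probes on every array, unscaled and without the subtracted numbers, gave -1.95 for ZT2. For ZT14 that sum gave -0.54, short of a 2-fold decrease, so the size of the table's -1.10 depends on the mutant probe left out. The table's differences between ZT14 and ZT2 were 6.21 in WT and 6.59 in the mutant. They include the difference between the subtracted numbers, 7.51 and 6.59 in WT and mutant.

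In the comparison of time points, the scaled level of miR-802 in WT was 1.61-fold lower at ZT14 than at ZT2, with a log2 ratio of -0.69 (spot SD 0.19). All 18 of 18 pairs of scaled spots were lower, and the spots of the 2 arrays did not overlap for either probe. Of these pairs, 9 came from A_54_P1847, none of whose kept spots on the WT array at ZT14 was called well above background. In WT the log2 ratio of A_54_P1848 alone was -0.67 (spot SD 0.11). For scale, 72.3% of the 137 miRNAs detected on both WT arrays were lower at ZT14 by any amount and 2.92% by at least 2-fold. In the mutant the log2 ratio of ZT14 to ZT2 was -0.052 (spot SD 0.62), with 12 of 20 spot pairs lower and overlapping spots for both probes. For A_54_P1848 alone it was -0.18 (spot SD 0.34), and A_54_P1847 had no spot called well above background on either mutant array. In the mutant, 79.3% of the 140 miRNAs detected at both time points were lower at ZT14, and 6.43% by at least 2-fold.

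Time was tested over the 4 arrays with genotype as a second term. In this limma fit over 123 miRNAs, the level of miR-802 at ZT14 relative to ZT2 was -0.37 ± 0.20 (log2, SE), with a Benjamini-Hochberg adjusted p of 0.525. The adjusted p lay between 0.496 and 1 under the other settings tried. No miRNA was called for time (0 of 123, 0.0%), and 12 of 123 (9.76%) had an unadjusted p under 0.05. The fit had 1 residual degree of freedom, and whether the time difference of miR-802 differs between the genotypes was not tested. That residual is itself the difference between the genotypes in their change over time. The SE therefore holds no spread between replicates.

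The miRNAs most like miR-802 over the 4 arrays were sought by the root mean square difference of their log2 levels, each centred on its own mean. The 5 nearest of the other miRNAs detected on all arrays were miR-1897-3p (0.47), miR-689 (0.47), miR-805 (0.51), miR-1224 (0.57) and miR-146a (0.58), against a median of 0.78. They were chosen for this likeness, so their ratios are a description, and each was smaller in size than that of miR-802. miR-1897-3p read -0.69 at ZT2 (spot SD 0.35) and -0.73 at ZT14 (spot SD 0.48) as log2 ratios. miR-689 had -0.58 (spot SD 0.33) and -0.999 (spot SD 0.42). miR-1224, whose gene also lies on chromosome 16, had -0.35 (spot SD 0.080) and -0.86 (spot SD 0.070). miR-146a, a miRNA known for its part in inflammatory signalling, had -0.66 (spot SD 0.19) and -0.087 (spot SD 0.22), and so differed from WT mainly at ZT2. miR-805 had -1.08 and -0.073, but its intensities of 3.02 to 7.06 were near or under the mean of the negative control spots on every array. The SD of the log2 level over the 4 arrays was 0.80 for miR-802, against a median of 0.14 over the 123 miRNAs.

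**Figure D4:**
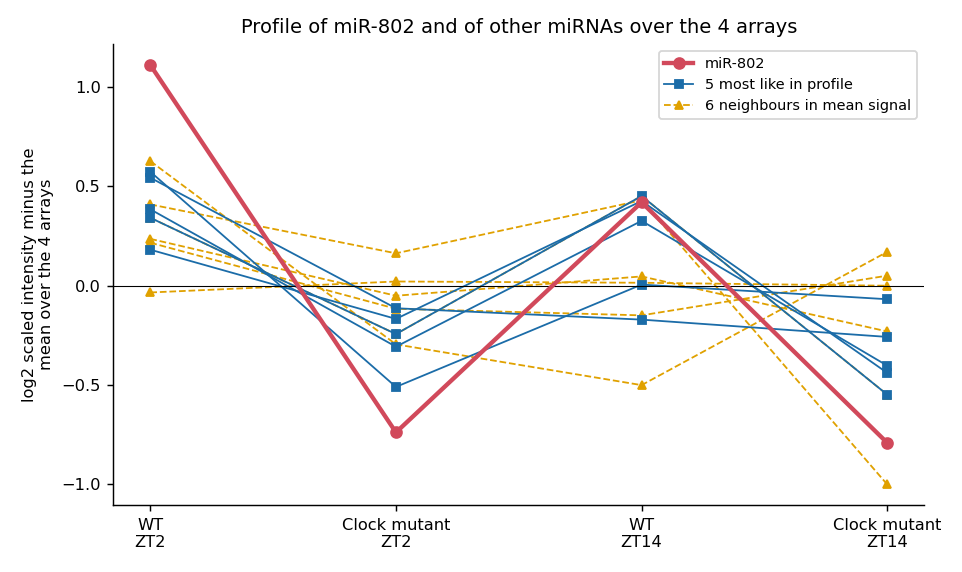
log2 scaled level on each array minus the mean over the 4 arrays (y axis) for miR-802, the 5 miRNAs nearest to it in profile and its 6 neighbours in mean signal; miR-689 is in both sets. miR-802 runs from its highest value in WT at ZT2 to lower values on both mutant arrays, with a wider swing than the 5 nearest.

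miRNAs of similar brightness show how far ratios at this signal can vary. The 3 next above miR-802 in mean scaled signal were miR-199b*, miR-689 and miR-200b, and the 3 next below were miR-877*, miR-148b and miR-425. At ZT2 their log2 ratios of mutant to WT ran from -0.92 (miR-200b, spot SD 0.36) to 0.055 (miR-148b, spot SD 1.63). All were above that of miR-802. At ZT14 they ran from -1.43 (miR-877*, spot SD 0.35) to 0.67 (miR-200b, spot SD 1.34), and miR-802 lay inside this range. The upper end of each range was smaller than its own spot SD. The median ratio of the 123 miRNAs was -0.010 (SD 0.36 across miRNAs) at ZT2 and -0.031 (SD 0.64) at ZT14.

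Other miRNAs with known roles in liver glucose and lipid metabolism were read for comparison. Of 17 such miRNAs on the array, 14 were detected on all arrays, and 0 of 14 were 2-fold lower or higher in the mutant at either time point. Over all miRNAs detected on both arrays, 2.5% were 2-fold lower at ZT2 and 6.5% at ZT14, so a count of 0 of 14 is near the background. At ZT2 their log2 ratios had a median of 0.012, with 7 of 14 below 0, against 60.0% of all miRNAs. At ZT14 the median was -0.053, with 10 of 14 below 0, against 56.1%. At ZT2 the lowest were miR-143, linked to insulin resistance (-0.59), and miR-130a (-0.44), and the highest were miR-103 (0.22), linked to insulin sensitivity, and miR-34a (0.56). At ZT14 the lowest were miR-378* (-0.47) and miR-378 (-0.33), which lie in the intron of a metabolic coactivator gene, *Ppargc1b*. The highest at ZT14 were miR-143 (0.19) and miR-34a (0.66), the latter a p53 target. miR-143 was thus below WT at ZT2 and above it at ZT14.

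On the chromosome of *Mir802*, 20 other entries of the array have a RefSeq gene, some of them with a further gene elsewhere, and 8 were detected on all arrays. None was 2-fold lower in the mutant at either time point (0 of 8), again near the shares of 2.5% and 6.5% over all miRNAs. The median of their log2 ratios was 0.26 for ZT2 and 0.13 for ZT14. At ZT2 they ran from -0.35 (miR-1224) and -0.32 (miR-690) to 0.36 (miR-99a) and 0.38 (miR-365). At ZT14 they ran from -0.86 (miR-1224) and -0.25 (miR-185) to 0.29 (miR-125b-5p) and 0.30 (miR-28).

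The makeup of the pools was read from marker miRNAs. The hepatocyte markers miR-122, miR-192 and miR-194 were detected on all arrays, as a liver label asks. Their summed level, in multiples of the 75th percentile, was 107 and 122 in WT and mutant at ZT2, and 96.0 and 108 at ZT14. Their log2 ratios of mutant to WT lay between 0.098 and 0.19 at ZT2 and between -0.086 and 0.18 at ZT14, so none came near the decrease of miR-802. The muscle markers miR-1, miR-133a and miR-133b were detected on the WT array at ZT2 alone, with intensities of 105.8, 21.6 and 37.6. Their summed level was 0.31 on that array and 0.011, -0.003 and 0.003 on the mutant array at ZT2, the WT array at ZT14 and the mutant array at ZT14.

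The leukocyte list, 2 of 5 detected on all arrays, summed to 1.22 for WT and 0.79 for the mutant at ZT2, and to 0.63 and 0.69 at ZT14. The list of bile duct and other epithelium, 2 of 5 detected on all arrays, summed to 0.24 and 0.12 at ZT2, and to 0.089 and 0.155 at ZT14. Markers of muscle, leukocytes and epithelium were therefore highest where miR-802 was highest, in WT at ZT2. At ZT14 the leukocyte and epithelial sums were higher in the mutant, and the muscle markers were undetected in both genotypes. The part of these markers in the miR-802 ratios at ZT2 and ZT14 was not tested. The red blood cell list summed to 3.34 and 5.94 at ZT2, and to 2.96 and 2.56 at ZT14. That of endothelium, the miR-126 arms, summed to 3.91 and 4.25 at ZT2, and to 3.72 and 3.61 at ZT14. None of the 4 pancreas markers miR-375, miR-216a, miR-216b and miR-217 was detected on any array.

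Across 16 other ways of computing the ratio, miR-802 was lower in the mutant in 16 at ZT2 and in 15 at ZT14, and at least 2-fold lower in 14 and 10 of them. These alternatives share the same 4 arrays, and some, such as the sum of both probes (-1.21 at ZT14), nearly repeat the reported ratio. The sum of detected probes and the deposited log2 table set 1 mutant probe against 2 WT probes. Those short of a 2-fold decrease at ZT14 were no scaling, the percentile over every mouse miRNA, quantile normalization, spike-ins, normexp and the software's total. The log2 ratio ran from -2.29 to -0.038 at ZT2 and from -1.78 to 0.68 at ZT14, the highest value at each time being that from the software's total per miRNA.

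**Figure D5:**
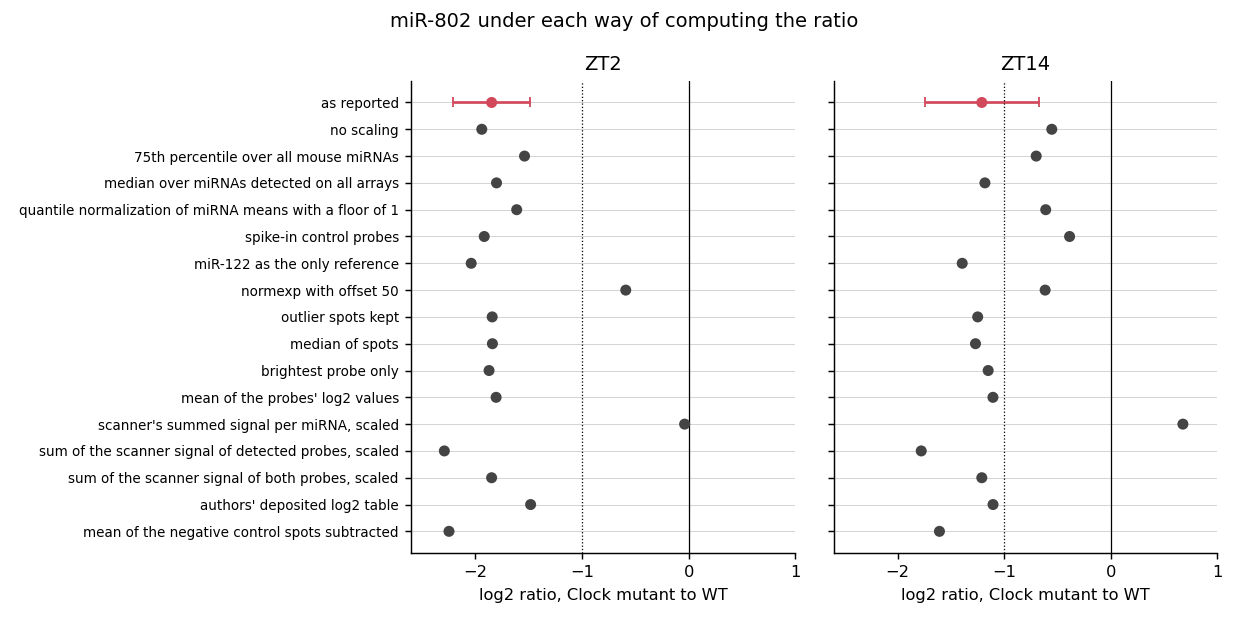
log2 ratio of *Clock* mutant to WT for miR-802 (x axis) at ZT2 and ZT14 under each way of computing it (y axis), the reported one in red with the SD of its spots. The dotted line marks a 2-fold decrease; at ZT2 14 of the 16 alternatives lie past it, and at ZT14 10 do.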

How the data were processed

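Liver RNA of 4 pools was read in 1 colour on 4 arrays of 1 slide with the same scan time. The authors deposited the output of Agilent Feature Extraction 10.7.1.1, with a linear background-subtracted intensity per spot, outlier flags, totals and detection calls, and a log2 table per miRNA; no step that makes arrays comparable is stated for the intensities. Groups were taken per the labels. Intensities without outlier flags were averaged within probes, then over probes, scaled to the array's 75th percentile over mouse miRNAs that all arrays detected, and log2-transformed. Since the number of arrays limits the precision, each ratio carries the spot SD only. Time was tested with limma 3.58.1 in R 4.3.3 on the additive model. The fit was checked on simulated data with no genotype difference and the same SD for every miRNA. Other steps used Python 3.11.15, numpy 2.4.6, pandas 2.3.3 and matplotlib 3.10.9.

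Named miRNAs are the 5 nearest profiles, the 3 signal neighbours on each side and, in the lists of metabolic and chromosome 16 miRNAs, the 2 lowest and 2 highest ratios; marker lists are given by their sums. miR-802 and the lists were chosen with earlier results of these data known. Of 611 mouse entries, 576 matched a RefSeq miRNA gene. The alternatives were other scalings (none, that percentile over every mouse miRNA, the median, quantile, spike-ins, miR-122), normexp with an offset of 50, other summaries of spots and probes, the deposited log2 table and other fold thresholds. qRT-PCR and target predictions are not analysed here, and the probe sequences were not used here.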

Additional observations from a re-analysis of the deposited data

How the results depend on the processing

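At ZT2 the log2 ratio of mutant to WT, -1.85 as reported, was -0.59 with normexp, -0.038 with the scanner's total per miRNA, -2.29 with the sum of detected probes, -1.48 in the deposited log2 table and -2.25 with the negative control mean subtracted. At ZT14 it was -1.21 as reported and -0.55 without scaling, -0.61 with quantile normalization, -0.39 with spike-ins, -0.62 with normexp, -1.78 with the sum of detected probes, and turned to 0.68 with the scanner's total per miRNA. The ratio of ZT14 to ZT2 in WT, -0.69 as reported, was -1.35 without scaling, -0.39 with the 75th percentile taken over every mouse miRNA, -0.47 with the median, -1.43 with spike-ins, 0.030 with normexp, -1.15 with the negative control mean subtracted and 6.21 in the deposited log2 table, where that in the mutant was 6.59. The limma coefficient for time turned from -0.37 to 0.025 with the percentile over every mouse miRNA. The fit without scaling called 5 miRNAs for time, against 0. miRNAs lower in the mutant numbered 16 at 1.5-fold and 1 at 3-fold at ZT2, against 4 at 2-fold, and 13 at 1.5-fold at ZT14, against 8. The sum of detected probes holds 1 probe on the mutant arrays and 2 on the WT arrays. The deposited log2 table holds the same detected probes, less a number subtracted per array. The scanner's total for miR-802 exceeded the sum of its probe totals by 74.9 and 74.7 units on the mutant arrays. For the other settings the cause was not tested. The remaining alternatives moved each ratio by less than its spot SD. At ZT14, where that SD was 0.54, these include the percentile over every mouse miRNA, which gave -0.70, short of a 2-fold decrease. The sum of both probes, the subtraction of the negative control mean and the second floor for the bound were chosen after seeing the data. No paired analysis was possible because the 4 arrays carry the same replicate number, 1 array per condition. The 1 array per condition and signals near the negative controls limit the ratios.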
